A study of Rattus norvegicus with 9 samples.

Results

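The genes described here are 31 genes of the oligodendrocyte lineage and of central nervous system myelin, taken from a table of 30507 rows of rat genes. They were taken by symbol from a list of known lineage genes. Each symbol stood on 1 row, and each of the 31 genes passed the filter on low counts in every comparison. They were sorted by the stage of the lineage they are known to mark, with 2 precursor genes (Pdgfra and Cspg4), 4 transcription factors that act across stages (Olig1, Olig2, Sox10 and Nkx2-2), 4 genes of newly formed oligodendrocytes (Gpr17, Enpp6, Bcas1 and Tspan2) and 21 genes of mature, myelinating cells.

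RNA sequencing was performed on whole spinal cord tissue from 9 wild-type female Sprague-Dawley rats, 8 weeks old at purchase, with 3 rats per group, killed 35 days after surgery (35 dpi). Sham rats had a laminectomy and no contusion according to the study's methods, whereas the labels describe them as untreated. SCI rats had a contusion of the cord at the T10 level and received no electrode. SCI + SCS rats had the same contusion and an epidural electrode, through which high-frequency spinal cord stimulation was given at 10 kHz and 0.12 mA with 30 µs pulses for 2 h per day from day 1. An injured group with an electrode and no current was not analysed here, so implantation and stimulation cannot be told apart. The tissue was the T9 to T11 segments, which span the contused level, and was not sorted into cell types. In such bulk tissue, fewer cells of a type and less RNA per cell cannot be told apart.

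Oligodendrocytes arise from precursors that carry the PDGF receptor alpha and the NG2 proteoglycan. When a precursor leaves the cell cycle it passes through a short premyelinating stage, marked by Gpr17 and Enpp6, and then wraps axons with a lipid-rich membrane held together by proteins such as MBP. Contusion of the cord kills oligodendrocytes and strips axons of myelin, while precursors persist and can divide and differentiate. Schwann cells, which myelinate nerve roots and can enter the injured cord, use several of the same genes.

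Myelin RNA was abundant in all 9 libraries. Mbp alone took 3.44% to 5.05% of all counts in the Sham libraries, 1.17% to 2.04% in the SCI libraries and 2.01% to 2.26% in the SCI + SCS libraries. The 31 genes together took 5.05% to 7.03%, 1.93% to 3.13% and 3.15% to 3.45%, respectively. On the FPKM scale, which divides counts by gene length and allows levels of different genes to be compared, Mbp was the highest of the 31 in the Sham group at 12787 ± 2623 (SD, n = 3), followed by Mobp at 2631 ± 265 and Cnp at 737 ± 99.9. The precursor genes were the lowest in the Sham group along with Gpr17 and Nkx2-2, with 3.61 ± 0.615 FPKM for Cspg4 and 10.2 ± 3.93 FPKM for Pdgfra. Library totals lay between 62844376 and 88358570 counts. Marker genes of skeletal muscle took 0.541% and 0.222% of the counts in SCI replicates 1 and 3 but at most 0.0394% in each of the other libraries. When genes of muscle and fat were taken out ahead of the scaling, the number of genes called in SCI vs. Sham stayed at 22.

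The question of the first comparison was how the contusion left the lineage at 35 dpi. After injury, most genes of each stage beyond the precursor were called lower, most strongly the premyelinating gene Gpr17 and the cytoskeletal gene Ermn. In contrast, the precursor gene Pdgfra was higher, while the precursor gene Cspg4 and the lineage factor Sox10 were not called. Of the 31 genes, 21 were called lower and 1 higher at an adjusted p under 0.05 (quasi-likelihood test of edgeR, Benjamini-Hochberg adjustment over 17822 rows). Over all rows tested, 49.4% were called, 25% lower and 24.3% higher. DESeq2 called 25 of the 31 lower and 2 higher, beside 23.9% of 20548 rows in each direction. With the added threshold of |log2FC|>1, 16 of the 31 were lower and 1 was higher, against 13.6% and 13.4% of all rows. The 3 SCI libraries lay entirely below the 3 Sham libraries for 23 genes and entirely above for 2 (Pdgfra and Lims2), while 31.1% and 32.5% of all rows showed such a separation. The median log2FC was 0.67 for the precursor genes, -0.96 for the transcription factors, -1.28 for the newly formed stage and -1.05 for the mature stage, beside 0.02 over all rows tested.

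**Figure D1:**
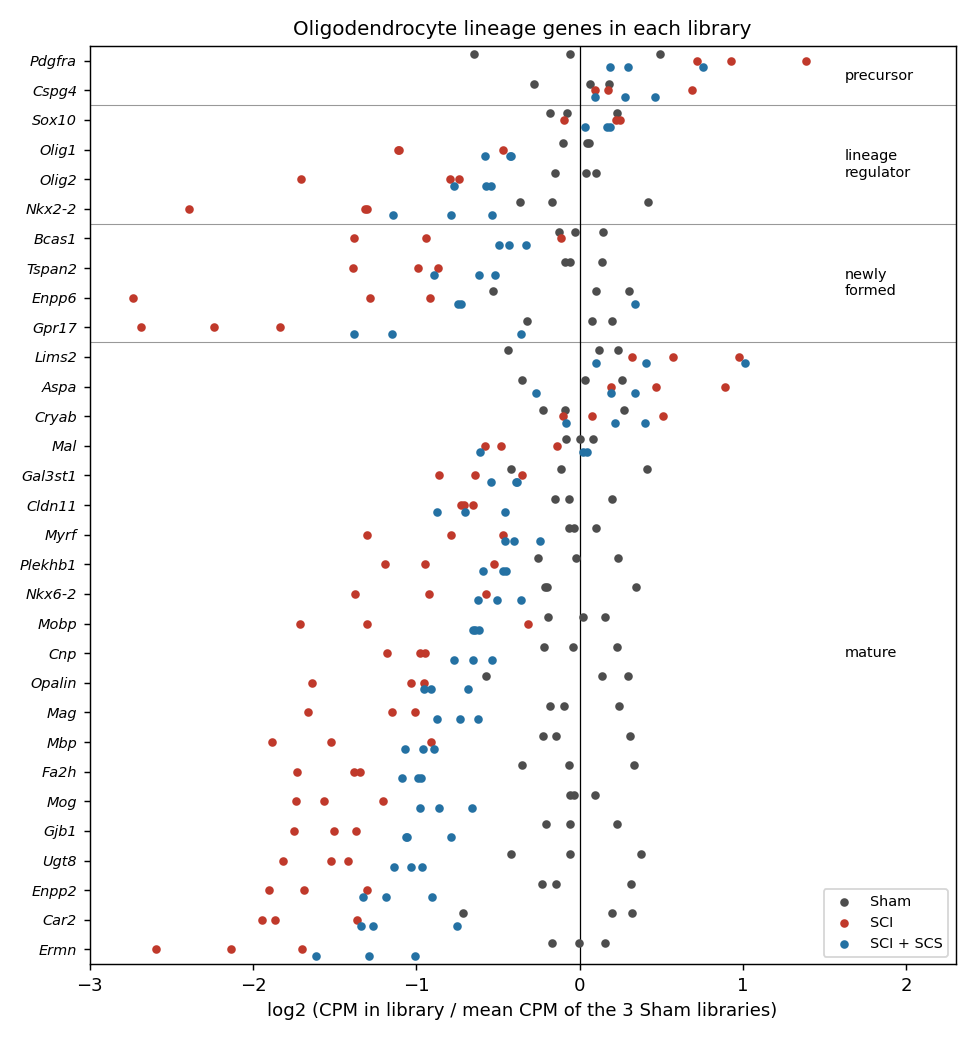
Level of each of the 31 genes in each library, as the log2 of CPM (counts scaled to library size by TMM) over the mean CPM of the 3 Sham libraries, with genes ordered by stage and, within a stage, by log2FC in SCI vs. Sham. For 12 genes, among them Gpr17, Ermn and Mog, every SCI + SCS point lies between all Sham and all SCI points.

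Pdgfra encodes the receptor through which PDGF drives division of precursors. It measured 52.9, 79.4 and 116 CPM (counts scaled to library size by TMM) in Sham replicates 1 to 3, 136, 158 and 216 CPM in the SCI libraries and 140.1, 94.1 and 102 CPM in the SCI + SCS libraries. Each SCI library exceeded each Sham library, while the SCI + SCS libraries overlapped both other groups. The SCI level was 2.03-fold the Sham level (log2FC 1.02, SE 0.30, adjusted p = 0.0304), and the call was lost when Sham replicate 1, Sham replicate 2, SCI replicate 2 or SCI replicate 3 was left out (adjusted p up to 0.1). Cspg4, which encodes the NG2 proteoglycan of precursors and pericytes, averaged 36.4 ± 5.80 CPM in the Sham group and 46.1 ± 10.9 CPM in the SCI group (SD, n = 3) and was not called (log2FC 0.33, SE 0.20, adjusted p = 0.207).

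Both precursor genes are also used outside the lineage, Pdgfra by fibroblasts and Cspg4 by pericytes. The summed level of 10 fibroblast markers was 500.1, 1453 and 2339 CPM in the Sham libraries, 4096, 5911 and 6383 CPM in the SCI libraries and 4233, 2553 and 2833 CPM in the SCI + SCS libraries, with 9 of the 10 called higher in SCI vs. Sham and none of them at 0 in the Sham libraries. Within each of the groups, the library with the most fibroblast RNA also had the most Pdgfra. The 8 pericyte markers summed to 125 to 198 CPM in Sham, 323 to 381 CPM in SCI and 209 to 261 CPM in SCI + SCS rats, with 2 called higher (Vtn and Anpep) and 2 lower (Rgs5 and Abcc9) in SCI vs. Sham. These shares were near the 24.3% and 25% of all rows. Despite the higher sum, the median log2FC of the 8 was -0.29, with 5 of them negative. The part of these cells in the Pdgfra difference was not tested.

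In a wider list of 19 precursor genes, 4 were called higher and 5 lower in SCI vs. Sham, shares close to the 24.3% and 25% of all rows. Called higher were C1ql1 (log2FC 1.45, SE 0.23, adjusted p = 0.00344), Emid1 (1.39, SE 0.17, adjusted p = 0.00192), Tmem100 and Megf11. Those called lower were led by the extracellular matrix gene Tnr (log2FC -3.26, SE 0.32, adjusted p = 0.00137), which fell from 6.51 ± 1.14 to 0.685 ± 0.245 CPM, and Xylt1 (-2.72, SE 0.35, adjusted p = 0.00215), an enzyme that starts the sugar chains of proteoglycans. The others called lower were Cspg5, Susd5 and Neu4. The list's median log2FC was -0.30. Some of these genes, such as Tnr, are made by neurons too, and all 14 neuronal markers were called lower, with a summed level of 5499.6 to 11998 CPM in the Sham group and 857 to 2764 CPM in the SCI group. The part of neurons in these differences was not tested.

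The 4 transcription factors separated into 3 that fell and 1 that was not called. Olig2, the basic helix-loop-helix factor that sets the lineage, measured 86.0, 82.5 and 72.4 CPM in the Sham libraries, 48.0, 46.3 and 24.6 CPM in the SCI libraries and 47.1, 54.0 and 55.1 CPM in the SCI + SCS libraries. All injured libraries lay below all Sham libraries. The SCI level was 2.05-fold lower (log2FC -1.04, SE 0.26, adjusted p = 0.017), a call lost without Sham replicate 2 (adjusted p = 0.0512). Olig1, its close relative that lies next to it on chromosome 11, measured 306, 303 and 274 CPM in the Sham libraries and 212, 136 and 136 CPM in the SCI libraries, without overlap (log2FC -0.88, SE 0.20, adjusted p = 0.0111). Nkx2-2, a homeobox factor of precursors and early differentiation, fell furthest of the 4, from 13.7, 15.7 and 23.6 CPM in the Sham libraries to 7.10, 7.17 and 3.37 CPM in the SCI libraries (log2FC -1.60, SE 0.35, adjusted p = 0.0103).

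Sox10, the HMG-box factor needed at all stages of the lineage, measured 195, 210.0 and 260.4 CPM in the Sham libraries, 263, 259 and 208 CPM in the SCI libraries and 252, 227 and 249 CPM in the SCI + SCS libraries. The groups overlapped throughout, and the log2FC in SCI vs. Sham was 0.12 (SE 0.15, adjusted p = 0.543). Sox10 is also a gene of Schwann cells. The 17 Schwann cell markers summed to 4629, 7212 and 7402 CPM in the Sham libraries and 9190.2, 13544 and 11351 CPM in the SCI libraries. Of the 17, 7 were called higher, beside 24.3% of all rows, and 10 were not called. One of those called was the peripheral myelin gene Pmp22 (log2FC 0.84, adjusted p = 0.0219). None of the 17 was at 0 in the Sham libraries. The part of Schwann cells in the Sox10 level was not tested.

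The sequences before the start sites of 4 genes that were called lower in both injured groups are shown because they carry the short motifs of the factors described here. Promoter sequences (250 bases before to 50 after the start site, RefSeq, GRCr8 build) were matched for 22 of the 31 genes. The motifs searched on both strands were the SOX core (ACAAAG or AACAAT), the core bound by MYRF (CTGGCAC or CTGGTAC) and an E-box of the kind bound by OLIG factors (CAGCTG or CATCTG). The MYRF core was found in 7 of the 22 promoters (31.8%; Olig2, Enpp6, Mag, Mal, Cnp, Cldn11 and Opalin), beside 6.78% of 33469 rat promoters. The SOX core was found in 7 of 22 (31.8%), beside 27.7% of all, and the E-box in 5 of 22 (22.7%), beside 29.1% of all. A gene was counted if any of its promoters held the motif, whereas the shares of all were per promoter. In Enpp6 the E-box and the MYRF core overlap. Of the 7 genes with a MYRF core, 6 were called lower in SCI vs. Sham and Mal was not. Of all 31 genes, which include those without a matched promoter, 21 were called lower, and of all rows 25%. A link between motif and change was not tested. A match describes the letters and shows no binding. The last base printed in each line is the base before the start site, and capitals mark the motif matches.
Opalin (chr1:249858191-249858440, minus strand): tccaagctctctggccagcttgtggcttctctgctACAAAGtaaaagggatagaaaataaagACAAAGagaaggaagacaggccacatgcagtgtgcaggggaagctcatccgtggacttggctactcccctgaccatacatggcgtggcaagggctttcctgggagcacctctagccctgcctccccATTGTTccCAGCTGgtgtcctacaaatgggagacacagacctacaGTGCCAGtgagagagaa
Mag (chr1:95291045-95291294, minus strand): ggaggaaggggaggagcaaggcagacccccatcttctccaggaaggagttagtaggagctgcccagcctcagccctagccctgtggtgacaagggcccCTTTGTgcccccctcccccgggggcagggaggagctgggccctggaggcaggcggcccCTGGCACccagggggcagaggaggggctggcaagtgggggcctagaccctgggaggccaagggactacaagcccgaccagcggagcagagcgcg
Cnp (chr10:86011254-86011503, plus strand): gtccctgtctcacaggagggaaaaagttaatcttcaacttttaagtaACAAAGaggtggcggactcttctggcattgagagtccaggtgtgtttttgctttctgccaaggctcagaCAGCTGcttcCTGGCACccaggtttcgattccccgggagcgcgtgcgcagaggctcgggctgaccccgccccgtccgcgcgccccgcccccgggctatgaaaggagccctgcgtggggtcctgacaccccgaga
Olig2 (chr11:43961335-43961584, plus strand): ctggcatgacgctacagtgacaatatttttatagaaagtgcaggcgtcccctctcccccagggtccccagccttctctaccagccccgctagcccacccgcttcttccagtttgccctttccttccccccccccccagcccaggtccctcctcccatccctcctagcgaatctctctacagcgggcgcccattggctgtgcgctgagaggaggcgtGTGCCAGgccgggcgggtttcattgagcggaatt

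Among the 31 genes, the 4 of newly formed oligodendrocytes showed the lowest median log2FC of the stages in SCI vs. Sham (-1.28). In wider lists of these stages the order was the reverse, with medians of -0.42 for newly formed and -0.90 for mature genes. Gpr17, a receptor of committed cells that have not yet made myelin, measured 40.2, 53.0 and 57.5 CPM in the Sham libraries, 10.6, 14.1 and 7.82 CPM in the SCI libraries and 19.3, 39.1 and 22.7 CPM in the SCI + SCS libraries. The 3 groups did not overlap, with the SCI + SCS libraries in the middle. The SCI level was 4.68-fold lower than the Sham level (log2FC -2.23, SE 0.25, adjusted p = 0.00163), the largest decrease among the 31 genes, and the call was kept in each of the 17 alternatives. Gpr17 (chromosome 18, 23577242 to 23582966, minus strand) lies wholly within Lims2 (23553937 to 23592137, plus strand), and the strand setting of the authors' counting is not given in the sources used here, so reads of the pair may not have been told apart. Lims2 ran the other way, with 32.8, 48.2 and 52.1 CPM in the Sham libraries and 55.4, 66.0 and 87.0 CPM in the SCI libraries (log2FC 0.63, SE 0.22, adjusted p = 0.055).

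Enpp6, a choline phosphodiesterase made by oligodendrocytes as they begin to differentiate, measured 28.7, 44.4 and 51.1 CPM in the Sham libraries and 21.9, 17.0 and 6.22 CPM in the SCI libraries. The groups did not overlap, and the level was 2.78-fold lower in the SCI group (log2FC -1.47, SE 0.46, adjusted p = 0.0356). The Enpp6 call was lost without Sham replicate 2, Sham replicate 3 or SCI replicate 2 (adjusted p up to 0.0899) and with a replicate block (adjusted p = 0.0645). Tspan2, a tetraspanin that rises at differentiation, measured 261, 228 and 222 CPM in the Sham libraries and 119, 130.1 and 90.5 CPM in the SCI libraries, a 2.12-fold lower level without overlap (log2FC -1.08, SE 0.16, adjusted p = 0.00313). Bcas1, a protein of early myelinating cells, measured 998, 831 and 889 CPM in the Sham libraries and 838, 471 and 348 CPM in the SCI libraries. Here SCI replicate 1 lay within the Sham range, and the gene was not called (log2FC -0.73, SE 0.32, adjusted p = 0.097).

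In the wider list of 20 genes of this stage, 9 were called lower and 2 higher in SCI vs. Sham, with a median log2FC of -0.42. Over all rows 25% were called lower and 24.3% higher, and the total share called in the list was close to the 49.4% of all rows. The largest decreases with separate libraries, apart from Casr, which averaged under 1 CPM in both groups, were in Tmem163 (log2FC -2.69, SE 0.19, adjusted p = 0.000976), a zinc transporter, in Elovl7 (-2.53, SE 0.33, adjusted p = 0.00227), an enzyme that lengthens fatty acids, and in the transcription factor Zfp488 (-2.05, SE 0.25, adjusted p = 0.00198). Tmem163 measured 40.1 ± 0.994 CPM in the Sham group and 6.27 ± 1.42 CPM in the SCI group.

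Among the 21 mature genes, 15 were called lower and none was called higher in SCI vs. Sham, beside 25% and 24.3% of all rows. Ermn encodes ermin, a cytoskeletal protein of mature oligodendrocytes. It measured 634, 708 and 794 CPM in the Sham libraries, 219, 162 and 118 CPM in the SCI libraries and 233, 354 and 291 CPM in the SCI + SCS libraries. The groups did not overlap, and the SCI level was 4.33-fold below the Sham level (log2FC -2.11, SE 0.24, adjusted p = 0.0017). Mog, a protein of the outermost layer of the central myelin sheath, measured 333, 339 and 369.8 CPM in the Sham libraries, 151, 117 and 104 CPM in the SCI libraries and 176, 220.0 and 191 CPM in the SCI + SCS libraries. Again no libraries of different groups overlapped, and the SCI level was 2.83-fold lower (log2FC -1.50, SE 0.16, adjusted p = 0.00143). Over 17 alternatives its log2FC lay between -1.66 and -1.39, with the call kept in each.

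Mbp, the adhesive protein of compact myelin in both oligodendrocytes and Schwann cells, measured 35554, 37581 and 51349.9 CPM in the Sham libraries and 22062, 14419 and 11247 CPM in the SCI libraries. The SCI libraries were all lower, with replicate 3 the lowest, and Sham replicate 3 stood above the other Sham libraries. The level was 2.64-fold lower (log2FC -1.40, SE 0.34, adjusted p = 0.016), and the call was lost without SCI replicate 2 or without SCI replicate 3 (adjusted p up to 0.0697). Mobp, a small basic protein of central myelin, had 5311, 4576 and 5823 CPM in the Sham libraries against 4202, 2119.9 and 1601 CPM in the SCI libraries and was not called (log2FC -1.004, SE 0.37, adjusted p = 0.0592). Cnp, Mag and Opalin, which encode a protein that keeps cytoplasmic channels open, the adhesion molecule next to the axon and a glycoprotein of the paranodal loops, had log2FCs of -1.05, -1.26 and -1.20, respectively (adjusted p = 0.0032, 0.00421 and 0.0132). Cldn11, the tight junction protein that seals the central sheath, fell less (log2FC -0.71, SE 0.12, adjusted p = 0.0049), from 914 ± 118 to 564 ± 15.2 CPM.

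Ugt8, Fa2h and Gal3st1, enzymes of the myelin galactolipids, all had a negative log2FC in SCI vs. Sham. Ugt8, which makes galactocerebroside, measured 657, 846 and 1141 CPM in the Sham libraries, 306, 329 and 250.02 CPM in the SCI libraries and 401, 430.1 and 451 CPM in the SCI + SCS libraries. Its groups did not overlap (log2FC in SCI vs. Sham -1.59, SE 0.22, adjusted p = 0.00265). Fa2h, which hydroxylates the fatty acids of these lipids, had a log2FC of -1.49 (SE 0.20, adjusted p = 0.0024). Gal3st1, which turns galactocerebroside into sulfatide, averaged 48.5 ± 14.4 CPM in the Sham group and 31.9 ± 5.70 CPM in the SCI group and was not called (log2FC -0.62, SE 0.23, adjusted p = 0.0628). It was called lower by DESeq2, with all 9 libraries in one fit and without Sham replicate 1. In a list of 20 other enzymes and carriers of these lipids, 8 were called lower and 2 higher, a total share close to the 49.4% of all rows called. The desaturase Scd fell furthest, from 185 ± 62.2 to 14.3 ± 1.03 CPM (log2FC -3.72, SE 0.28, adjusted p = 0.00103), followed by the elongase Elovl6 (-1.86, adjusted p = 0.00325) and the desaturase Scd2 (-1.31, adjusted p = 0.00306). The lysosomal ceramidase gene Asah1 was called higher (log2FC 1.22, SE 0.41, adjusted p = 0.0468), beside phagocyte markers whose summed level was 899 to 916 CPM in the Sham group and 4339 to 5630.1 CPM in the SCI group. The part of phagocytes in the Asah1 difference was not tested.

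Among the remaining mature genes, Car2 (carbonic anhydrase II), Enpp2 (autotaxin) and Gjb1 (the gap junction protein connexin 32) had larger decreases than most structural genes. Car2 measured 161, 78.6 and 148 CPM in the Sham libraries and 35.4, 50.3 and 33.5 CPM in the SCI libraries (log2FC -1.72, SE 0.30, adjusted p = 0.00508). Enpp2 measured 561, 594 and 818 CPM in the Sham libraries and 266, 204 and 176 CPM in the SCI libraries (log2FC -1.63, SE 0.21, adjusted p = 0.00225). No SCI library of either gene reached a Sham library, although Sham replicate 2 stood low for Car2. Gjb1 had a log2FC of -1.55 (SE 0.15, adjusted p = 0.00138), going from 152 ± 23.97 to 52.7 ± 6.89 CPM. The mature transcription factors Myrf, which is needed for myelin gene expression, and Nkx6-2 had smaller decreases, with log2FCs of -0.83 and -0.93 (adjusted p = 0.0177 and 0.0193), and that of Plekhb1, a pleckstrin homology protein of glia, was -0.88 (adjusted p = 0.0157). The calls of Myrf, Nkx6-2 and Plekhb1 were lost without SCI replicate 2 (adjusted p = 0.0522, 0.0587 and 0.0581).

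The mature genes not called in SCI vs. Sham were Mobp, Gal3st1, Mal, Aspa, Lims2 and Cryab, of which the last 3 had a positive log2FC. Aspa, the enzyme that frees acetate from N-acetylaspartate for lipid synthesis, measured 77.6, 101 and 119 CPM in the Sham libraries and 137, 114 and 184 CPM in the SCI libraries, with SCI replicate 2 inside the Sham range (log2FC 0.53, SE 0.22, adjusted p = 0.0842). Cryab, a small heat shock protein that astrocytes also make, averaged 353 ± 64.8 and 400.3 ± 90.0 CPM (log2FC 0.16, SE 0.20, adjusted p = 0.526). Mal, a proteolipid of membrane rafts in both kinds of myelin, had 578, 544 and 611 CPM in the Sham libraries, 387, 525 and 413 CPM in the SCI libraries and 595, 378 and 587 CPM in the SCI + SCS libraries (log2FC in SCI vs. Sham -0.40, SE 0.15, adjusted p = 0.0579). In the injured groups the libraries with more Mal were those with a higher sum of Schwann cell markers, which was 15247, 7178 and 10377 CPM in the SCI + SCS libraries. In the Sham group, with sums of 4629, 7212 and 7402 CPM, this order did not hold. The Sham group had the highest mean Mal level (578 CPM). The part of Schwann cells in the Mal level was not tested.

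**Figure D2:**
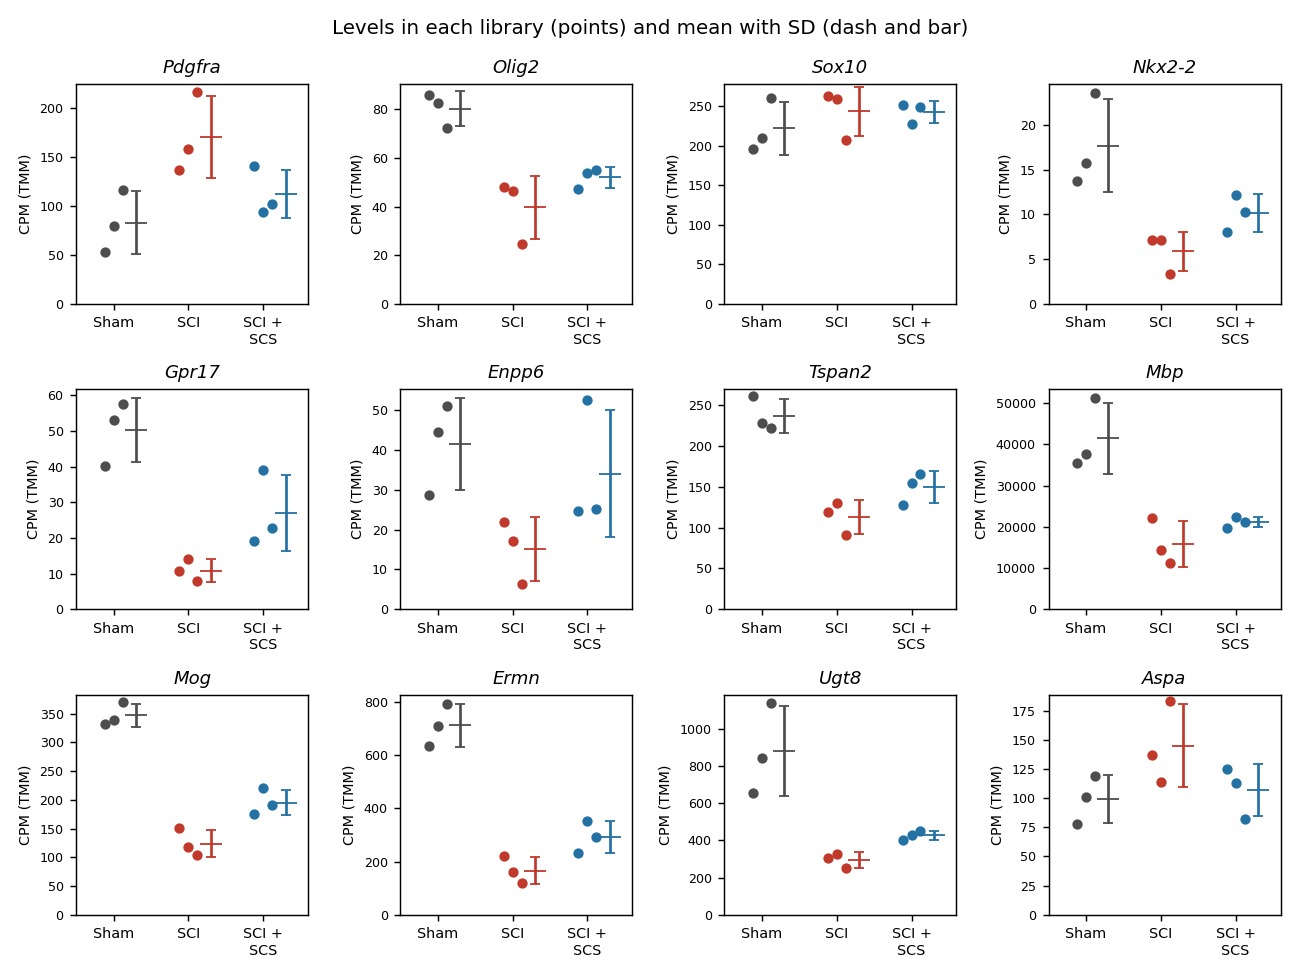
Level of 12 genes in CPM (vertical axes from 0) in each of the 9 libraries, with the mean and SD (n = 3) of each group drawn beside the points. Sox10 and Aspa overlap between all groups, Pdgfra is higher in every SCI library than in every Sham library, and Gpr17, Nkx2-2, Mog, Ermn and Ugt8 separate into 3 levels with the SCI + SCS group between the others.

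The mature genes were also counted apart by whether Schwann cells use them. Of 10 shared genes, 7 were called lower with a median log2FC of -1.16, and of 11 central genes, 8 were called lower with a median of -1.004. In a wider list of 40 mature oligodendrocyte genes, 24 were called lower and 0 higher, with a median log2FC of -0.90. Over all rows, 25% were called lower and 24.3% higher. At an unadjusted p under 0.05, 26 of the 40 were lower and 1 higher, beside 28.6% and 28.7% of all rows. DESeq2 likewise called 26 lower and 1 higher, beside 23.9% of its rows in each direction. The largest decreases there were in the transcription factor St18 (log2FC -2.81, SE 0.26, adjusted p = 0.00126), Tmem88b (-2.60, SE 0.21, adjusted p = 0.00104), the kinase Cdk18 (-2.44, SE 0.30, adjusted p = 0.00202) and Pex5l (-2.42, SE 0.25, adjusted p = 0.00143). Tmem88b averaged 72.6 ± 7.66 CPM in the Sham group and 12.1 ± 2.90 CPM in the SCI group.

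The second comparison asked whether stimulation with implantation changed the lineage after injury. No gene of the 31 was called in SCI + SCS vs. SCI by edgeR at an adjusted p under 0.05, where only 1 of 17663 rows (0.00566%) was called at all. Of the 31 log2FCs, 27 were positive. At an unadjusted p under 0.05, 13 were higher, beside 13.3% of all rows, and 1 (Pdgfra) was lower, beside 10.9%. The libraries separated completely for 13 genes, all higher with SCS, while 15.6% of all rows separated in that direction. DESeq2, on the same 6 libraries, called 10 genes higher (Gpr17, Enpp6, Mog, Mag, Cnp, Ermn, Ugt8, Fa2h, Gjb1 and Car2) and Pdgfra lower, where it called 8.28% and 6.41% of 17356 rows. The median log2FC was -0.32 for the precursor genes, 0.40 for the transcription factors, 0.80 for the newly formed stage and 0.42 for the mature stage, beside -0.01 over all rows. Without SCI replicate 3 the mature median was 0.24 and the newly formed median 0.54, and the precursor median rested on 2 genes.

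The largest differences were in the newly formed genes Gpr17 and Enpp6. Gpr17 averaged 10.8 ± 3.14 CPM in SCI and 27.0 ± 10.6 CPM in SCI + SCS rats, without overlap (log2FC 1.33, SE 0.32, adjusted p = 0.091). The spread was wide, since SCI + SCS replicate 2 at 39.1 CPM was well above the other two. Enpp6 measured 24.7, 52.4 and 25.1 CPM in the SCI + SCS libraries, each above the SCI libraries, and replicate 2 again was the highest (log2FC 1.19, SE 0.49, adjusted p = 0.199). Nkx2-2 measured 8.01, 12.2 and 10.2 CPM, also above each SCI library (log2FC 0.80, SE 0.31, adjusted p = 0.183). For Tspan2, with 128, 155 and 166 CPM, SCI + SCS replicate 1 fell below SCI replicate 2 (log2FC 0.41, SE 0.16, adjusted p = 0.182).

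Mature genes differed by less but with smaller errors. The smallest adjusted p-values among the 31 were those of Gjb1 (log2FC 0.58, SE 0.13, adjusted p = 0.0866) and Ugt8 (0.54, SE 0.12, adjusted p = 0.0872), followed by Mog (0.66, SE 0.16, adjusted p = 0.0909). These, Gpr17 and Fa2h (0.47, SE 0.12, adjusted p = 0.0959) were the 5 genes under 0.1, a level that 6.79% of all rows reached. Ermn had a larger difference with a larger error (0.83, SE 0.25, adjusted p = 0.119). Mbp averaged 15909 ± 5559 CPM in SCI and 21157 ± 1312 CPM in SCI + SCS rats, and SCI replicate 1 at 22062 CPM lay above 2 of the 3 SCI + SCS libraries (log2FC 0.42, SE 0.26, adjusted p = 0.377). Cldn11 (0.04, SE 0.12), Sox10 (0.01, SE 0.12) and Cryab (0.02, SE 0.19) had log2FCs within 1 SE of 0, and those of Aspa and Pdgfra were negative (-0.43, SE 0.21, and -0.59, SE 0.21, adjusted p = 0.274 and 0.156).

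**Figure D3:**
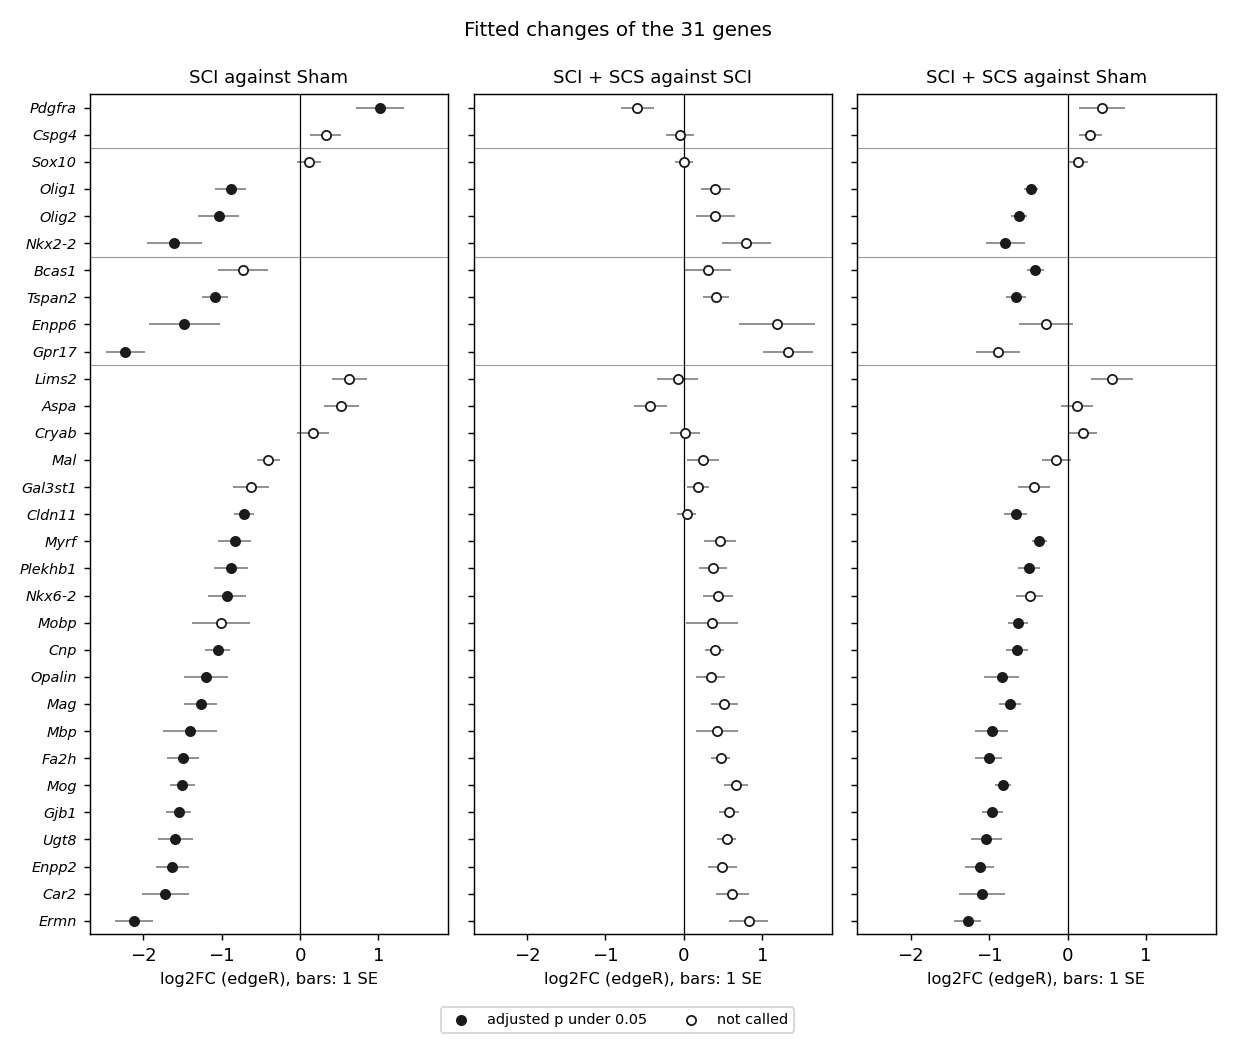
Fitted log2FC of each of the 31 genes with its SE as a bar (horizontal axes) in the 3 comparisons, with filled points for an adjusted p under 0.05 in edgeR. SCI vs. Sham has 22 filled points, SCI + SCS vs. SCI has none, and SCI + SCS vs. Sham has 20, all below 0.

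The wider lists had no call by edgeR in SCI + SCS vs. SCI. Unadjusted p under 0.05 was reached by 17 of 40 mature genes, all higher, by 6 higher and 2 lower of the 19 newly formed genes tested, by 3 higher and 1 lower of 19 precursor genes and by 5 of 20 lipid genes, all higher, beside 13.3% higher and 10.9% lower over all rows. For the precursor list these shares were near those of all rows. DESeq2 called 13, 3 and 4 genes of the mature, newly formed and lipid lists higher and 1 of the precursor list lower, beside 8.28% and 6.41% of all rows. The wider precursor list had 16 of 19 positive log2FCs with a median of 0.27, the opposite sign to the median of Pdgfra and Cspg4. Marker lists of other cell types also had different sums in the injured groups. The summed fibroblast level was 4096 to 6383 CPM in SCI and 2553 to 4233 CPM in SCI + SCS rats, with 7 of 10 markers lower at an unadjusted p under 0.05, and the summed neuronal level was 857 to 2764 CPM against 2550.0 to 4222 CPM, with 7 of 14 higher. Among astrocyte markers 7 of 12 were higher at an unadjusted p under 0.05 (median log2FC 0.51), and their sum was 13620.0 to 17684 CPM against 17444 to 20767 CPM. Among phagocyte markers 6 of 9 were lower (median log2FC -0.52), with sums of 4339 to 5630.1 CPM against 3358 to 4053 CPM. The part of these cell types in the oligodendrocyte values was not tested.

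The third comparison placed the SCI + SCS group against the Sham group. It uses the same Sham libraries as the first comparison and the same SCI + SCS libraries as the second, so the 3 sets of values are not independent. Of the 31 genes, 20 were called lower and 0 higher in edgeR, where 32.4% of 17640 rows were called, 16.2% in each direction. At an unadjusted p under 0.05, 22 were lower and 0 higher, beside 23.1% of all rows in each direction. DESeq2 likewise called 22 lower and 0 higher, beside 19.7% and 18.6% of its rows. With |log2FC|>1, 5 genes were lower (Ermn, Ugt8, Fa2h, Car2 and Enpp2) and none was higher, beside 5.44% and 6.28% of all rows. The libraries separated for 22 genes, all lower, beside 26.2% of all rows. The median log2FC was 0.36 for the precursor genes, neither of which was called, -0.55 for the transcription factors, -0.54 for the newly formed stage and -0.66 for the mature stage. The number called was 7 without SCI + SCS replicate 1, 10 without SCI + SCS replicate 3 and 12 without Sham replicate 2. Fewer rows were called in these fits as well, with 2152 of 17917, 3373 of 17937 and 2149 of 17927, respectively. With all 6 libraries it was 5710 of 17640. Mog, Ermn, Fa2h, Gjb1 and Enpp2 were called lower in all 17 alternatives of this comparison and of SCI vs. Sham. The Car2 call was lost when Sham replicate 1, Sham replicate 3 or any 1 SCI + SCS library was left out (adjusted p up to 0.118) or a replicate block was used (adjusted p = 0.13), and that of Ugt8 without SCI + SCS replicate 1 (adjusted p = 0.0574).

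Side by side, the log2FC against Sham was -2.23 for SCI and -0.89 for SCI + SCS in the case of Gpr17 (adjusted p = 0.0523 in the latter), -2.11 and -1.28 for Ermn (adjusted p = 0.0055), and -1.50 and -0.82 for Mog (adjusted p = 0.00509). For Mbp the values were -1.40 and -0.97 (adjusted p = 0.0184), the latter call being lost when Sham replicate 2 or any 1 SCI + SCS library was left out (adjusted p up to 0.0721). With a replicate block the Mbp call was lost as well (adjusted p = 0.0926). For Olig2 the values were -1.04 and -0.62 (adjusted p = 0.00973), with the latter call lost with all 9 libraries in one fit (adjusted p = 0.0633) and with a replicate block (adjusted p = 0.0626). Enpp6 was not called in SCI + SCS vs. Sham, with a log2FC of -0.28 (SE 0.35, adjusted p = 0.563). Bcas1 and Mobp, which were not called in SCI vs. Sham, were called lower in SCI + SCS vs. Sham (log2FC -0.41, adjusted p = 0.0297, and -0.63, adjusted p = 0.016). Both decreases were larger in SCI vs. Sham, with log2FCs of -0.73 and -1.004. There 5 and 7 of 17 alternatives, DESeq2 among them, called the genes lower. Mobp measured 3329, 3355 and 3418 CPM in the SCI + SCS libraries, a narrower spread than that of the SCI libraries. Both calls in SCI + SCS vs. Sham were lost when any 1 of the SCI + SCS libraries was left out, and that of Bcas1 also without Sham replicate 2 (adjusted p up to 0.104 for Bcas1 and 0.0631 for Mobp). They were also lost with a replicate block (adjusted p = 0.107 and 0.08) and with all 9 libraries in one fit (adjusted p = 0.268 and 0.147). The mean of the SCI + SCS group lay between those of the Sham and SCI groups for 30 of the 31 genes, with Cryab as the exception, beside 74.4% of the 17284 rows tested in all 3 comparisons. For 12 genes each SCI + SCS library lay between all Sham and all SCI libraries (Nkx2-2, Gpr17, Mog, Mag, Cnp, Ermn, Opalin, Ugt8, Fa2h, Myrf, Gjb1 and Car2), in each case with Sham above and SCI below, an order that 10.3% of those rows had.

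In the wider lists against Sham, 23 of 40 mature genes were lower in the SCI + SCS group, led by St18 (log2FC -1.93, SE 0.16, adjusted p = 0.00315) and Pex5l (-1.71, SE 0.16, adjusted p = 0.00336). Of the 20 newly formed genes 4 were lower, of the 19 precursor genes 4 were higher and 4 lower, and of the 20 lipid genes 1 was higher and 6 lower, beside 16.2% of all rows in each direction. The shares of the newly formed and precursor lists were near that of all rows. C1ql1 was called higher against Sham in the SCI + SCS group too (log2FC 1.29, SE 0.24, adjusted p = 0.0115), as did Megf11 (0.91, SE 0.21, adjusted p = 0.0206), and Tnr was again lower (-2.13, SE 0.42, adjusted p = 0.0137). Scd measured 25.5 ± 2.58 CPM in the SCI + SCS group, still below the Sham level (log2FC -2.86, SE 0.27, adjusted p = 0.00336).

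The stages were finally compared within each library as ratios of their summed CPM, on which the scaling between libraries has no effect. The ratio of mature to precursor genes was 605, 446 and 441 in the Sham libraries, 184, 101 and 68.0 in the SCI libraries and 161, 226 and 224 in the SCI + SCS libraries. All injured libraries lay below all Sham libraries, and the injured groups overlapped. The ratio of mature genes to the 4 transcription factors averaged 93.1 ± 14.9 over the Sham, 52.1 ± 7.41 over the SCI and 60.4 ± 2.89 over the SCI + SCS libraries (SD, n = 3), and again both injured groups were below the Sham group. Mbp makes up most of the mature sum, so it weighs most on the upper side of both ratios. The lower side of the first ratio, the precursor sum, differed as well. It was 82.9, 117 and 158 CPM in the Sham, 175, 216 and 257 CPM in the SCI and 184, 144 and 140 CPM in the SCI + SCS libraries. Most of this sum was Pdgfra, which fibroblasts also use, and their part in the ratio was not tested.

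The ratio of newly formed to mature genes averaged 0.0220 ± 0.00447 over the Sham, 0.0285 ± 0.00247 over the SCI and 0.0285 ± 0.00115 over the SCI + SCS libraries. It was 0.0265 in Sham replicate 1, within the range of the injured libraries. The ratio of a single mature gene to a factor of the whole lineage, Mog to Sox10, was 1.70, 1.61 and 1.42 in the Sham libraries, 0.572, 0.453 and 0.501 in the SCI libraries and 0.698, 0.968 and 0.765 in the SCI + SCS libraries. In this ratio the 3 groups were separate and in the same order as for Mog itself. Sox10 is also a gene of Schwann cells, and their part in this ratio was not tested. No test was run on these ratios, as 3 rats against 3 cannot give an exact permutation p below 0.1.

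**Figure D4:**
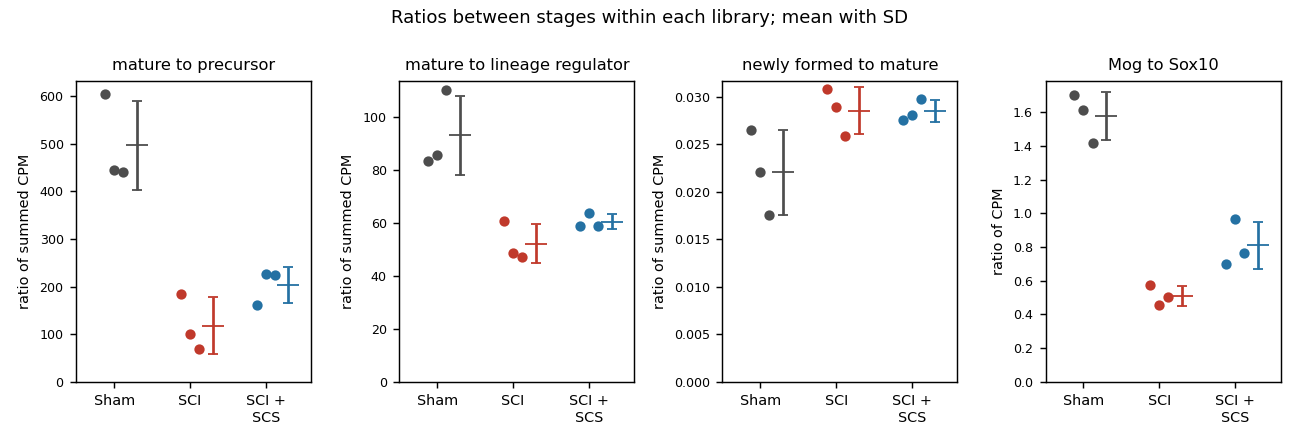
Ratios between stages within each library (points; vertical axes from 0), with the mean and SD (n = 3) of each group. Mature to precursor, mature to lineage factors and Mog to Sox10 are lower in all 6 injured libraries than in the 3 Sham libraries, whereas newly formed to mature overlaps.

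Rats of a group differed in a similar way across many of the genes. Sham replicate 3 had the highest level of its group for 24 of the 31 genes, SCI replicate 3 the lowest of its group for 24, and SCI + SCS replicate 1 the lowest of its group for 20. The median coefficient of variation of the newly formed genes was 13.6% among Sham, 37.6% among SCI and 26.1% among SCI + SCS rats, and that of the mature genes was 18.4%, 22.5% and 10.3%, respectively. SCI replicate 3 also had the lowest neuronal level of its group (857 CPM) and the highest fibroblast level (6383 CPM), and SCI + SCS replicate 1 had the lowest neuronal (2550.0 CPM) and highest fibroblast level (4233 CPM) of its group. Sham replicate 3, which was highest of its group for 24 genes, likewise had its lowest neuronal (5499.6 CPM) and highest fibroblast level (2339 CPM). The part of these cell types in the spread was not tested.

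**Figure D5:**
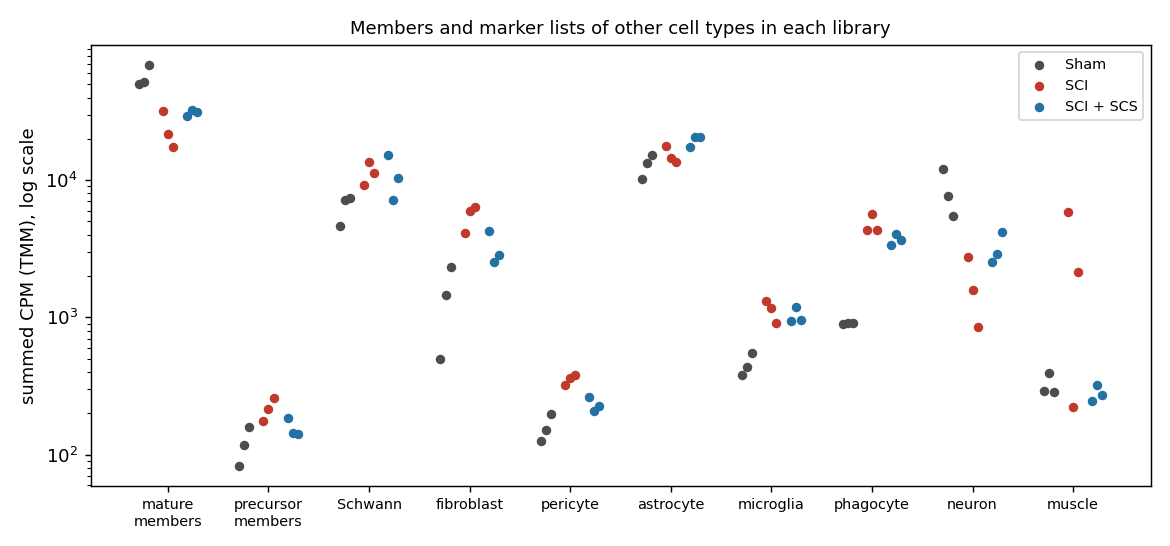
Summed CPM (log scale) of the mature and precursor genes described here and of marker lists of other cell types, in each library. Schwann cell, fibroblast and phagocyte sums are higher in the SCI libraries than in every Sham library, the neuronal sum is lower in all injured libraries, and muscle stands high in 2 SCI libraries.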

How the data were processed

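The authors selected polyadenylated RNA, trimmed reads with fastp 0.23.2 and, per the labels' processing notes, used HISAT2 2.2.1 and the mRatBN7.2 build. The counting program, its strand setting and the annotation release are not given in the sources used here. The authors deposited raw counts per gene, without normalization, and FPKM, which are counts divided by gene length and library total. Libraries were grouped by their labels, which name 1 batch.

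From the counts, groups were compared over their 6 libraries with edgeR 4.0.16 in R 4.3.3 (quasi-likelihood test, TMM, filterByExpr), with Benjamini-Hochberg adjustment over all rows tested and without covariates. The SE was taken as |log2FC| over the root of the F statistic. CPM were scaled by TMM over 9 libraries. Alternatives used DESeq2 1.42.0, limma 3.58.1 on log2(FPKM + 1) and log2(FPKM + 0.1) for rows with a mean FPKM of at least 0.1, other filters and scalings, and each library left out in turn. Fits were tested on simulated data.

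The 31 genes and all lists were chosen with earlier results of these data known. Genes were described in full if called with separate libraries, up to 4 per stage by |log2FC|, plus Mbp, Mog, Olig2, Pdgfra and Gpr17, and up to 4 genes of each wider list were named likewise. Values of further genes among the 31 were added after they were seen.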

Additional observations from a re-analysis of the deposited data

How the results depend on the processing

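In SCI vs. Sham, 17 to 25 of the 31 genes were called when each library was left out in turn, and the median log2FC of the mature genes ranged from -1.27 (without SCI replicate 1) to -0.93. Of all rows, 6091 of 18054 to 8363 of 18093 were called in these fits, beside 8796 of 17822 with all 6 libraries. In SCI + SCS vs. SCI, DESeq2 called 11 genes where edgeR called 0, and of the wider lists 13 mature, 3 newly formed, 1 precursor and 4 lipid genes. Over all rows DESeq2 called 2550 of 17356 and edgeR 1 of 17663. With a library left out, the medians there ranged from 0.24 to 0.56 for the mature and from 0.54 to 1.01 for the newly formed genes. In SCI + SCS vs. Sham, 7 to 19 genes were called with a library left out, where 2149 of 17927 to 6637 of 17974 rows were called. DESeq2 called 8 of the wider newly formed genes against 4 in edgeR, beside 7330 of 19147 rows against 5710 of 17640. The cause of these differences was not tested. The replicate number joins different rats, and deviations of same-numbered libraries correlated at -0.33 to 0.24. With 3 libraries per group, these correlations cannot settle whether the numbers pair the libraries. With a replicate block, 25 genes were called in SCI vs. Sham, 0 in SCI + SCS vs. SCI and 6 in SCI + SCS vs. Sham. Of all rows, 8701 of 17822, 0 of 17663 and 1259 of 17640 were then called, respectively.

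Signs turned only for genes that were not called in the comparison concerned. In SCI + SCS vs. SCI, the log2FC of Sox10 was -0.00187 in DESeq2, -0.00147 with DESeq2 size factors, -0.00421 without the filter and -0.00337 with all 9 libraries, and that of Cspg4 was 0.00372 in limma on log2(FPKM + 0.1). With a library left out, the lowest and highest values there were -0.11 and 0.052 for Sox10, -0.17 and 0.16 for Cspg4, -0.11 and 0.20 for Cryab, -0.37 and 0.11 for Lims2 and -0.0798 and 0.12 for Cldn11. They were -0.0296 and 0.32 for Cryab in SCI vs. Sham, and -0.0339 and 0.27 for Aspa and -0.25 and 0.0306 for Mal in SCI + SCS vs. Sham.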
